A study of Arabidopsis thaliana with 6 samples.

Results

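The transcript levels of 9 Arabidopsis genes that move sugars across membranes were compared in RNA-Seq libraries of amiR1-3-mterf2 and wild-type Col-0 seedlings. The genes were taken by their locus identifiers, from a list drawn up with earlier results of these libraries known, and are the hexose transporters STP1, STP4 and STP13, the sucrose transporters SUC1 and SUC2, the sugar facilitators SWEET11 and SWEET12, and the chloroplast translocators GPT2 and TPT. They make up 9 of the 36917 genes in the count files, and all 9 were among the 17902 genes with enough counts to be tested. The 3 amiR1-3-mterf2 libraries came from a single transgenic line that expresses an artificial microRNA against MTERF2, a nuclear gene for a chloroplast protein of the mitochondrial transcription termination factor family, and the 3 Col-0 libraries came from wild-type seedlings without this construct. All seedlings were harvested at 6 days, after growth in long days at 22 °C and 100 μmol photons per square metre and second, and the agar medium of both genotypes contained 1% sucrose. RNA of seedlings was sequenced after depletion of rRNA, with biological replicates according to the paper.

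Sucrose is made in the cytosol of leaf cells from triose phosphates, which leave the chloroplast through TPT in exchange for phosphate. GPT2 belongs to the same translocator family and carries glucose 6-phosphate. SWEET11 and SWEET12 release sucrose from phloem parenchyma cells into the cell wall space, from which the proton symporter SUC2 loads it into companion cells, and SUC1 is a further sucrose-proton symporter of the plasma membrane, best known from pollen and roots. The STP proteins are proton symporters that take up hexoses from the cell wall space, where invertases can split sucrose into glucose and fructose. Several of these genes are known to respond to sugar supply, to stress and to pathogens.

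MTERF2 itself, the target of the construct, was covered by 32, 16 and 8 counts in amiR1-3-mterf2 and by 48, 33 and 58 counts in Col-0. With a log2 fold change of -1.15 (SE 0.478) it did not pass an adjusted p of 0.05 (adjusted p = 0.0837). This and all adjusted p values given here are from the edgeR quasi-likelihood test. MTERF2 passed without amiR1-3-mterf2 replicate 1 (-1.88, adjusted p = 0.0150) and without Col-0 replicate 2 (-1.29, adjusted p = 0.0265). Without each of the other libraries it did not pass, at -1.15 to -0.78 (adjusted p = 0.148 to 0.236). The paper reports lower MTERF2 transcript in its amiR lines by quantitative RT-PCR. It also states that its RNA-Seq data showed less MTERF2 mRNA in the mutant. The libraries held 18004935 to 21832003 counts in amiR1-3-mterf2 and 18922938 to 19578810 in Col-0, so that 3 counts, taken as the limit of detection, correspond to 0.140 to 0.175 CPM (counts scaled to a fixed library size, with the trimmed mean of M values, TMM). Col-0 replicate 2 stood apart: over nuclear genes it differed from the other Col-0 libraries by a mean chi-square of 24.3 and 25.2 per gene, whereas all other pairs within a genotype differed by 3.03 to 3.58. Root-hair genes were high in this library only, since COBL9 had 176 counts there against at most 12 in any other library of either genotype, and EXPA7 had 69 against 0 in all others. The values of the 9 genes are therefore given for every library.

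Of the 9 genes, 5 rose and 2 fell in amiR1-3-mterf2, past an adjusted p of 0.05, while 18.1% of all tested genes were higher and 18.2% were lower at this threshold. The genes that rose were STP1, STP4, STP13, SWEET11 and SWEET12, and those that fell were SUC1 and SUC2. The levels of the genotypes did not overlap for 8 of the 9 genes, of which 5 were higher and 3 lower in all amiR1-3-mterf2 libraries, against 49.4% of all tested genes (25% higher and 24.4% lower). The median log2 fold change of the 9 genes was 0.47, beside -0.02 over all genes tested. Without Col-0 replicate 2, 5 of the 9 genes rose and 3 fell, while 4046 of 18303 tested genes were higher and 3803 lower. With total counts in place of TMM, 3 of the 9 genes rose and 3 fell, and 33.9% instead of 49.9% of the calls over all genes were higher.

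To show the sequence in front of genes that moved in opposite directions, the 250 bases upstream of the annotated start are printed for the hexose transporters with the larger rises and for both sucrose transporters that fell. The sequences are from the TAIR10.1 RefSeq assembly and read 5′ to 3′ on the strand of the gene, at chr1:3776986-3777235 (plus strand) for STP1, chr3:6934318-6934567 (plus strand) for STP4, chr1:27053780-27054029 (plus strand) for SUC1 and chr1:8033157-8033406 (minus strand) for SUC2. Capitals mark the words searched on both strands, namely CACGTG (G-box), TTGACC and TTGACT (W-box), TATCCA and TTATCC (words of sugar response elements) and GATAAG (I-box).
STP1 promoter: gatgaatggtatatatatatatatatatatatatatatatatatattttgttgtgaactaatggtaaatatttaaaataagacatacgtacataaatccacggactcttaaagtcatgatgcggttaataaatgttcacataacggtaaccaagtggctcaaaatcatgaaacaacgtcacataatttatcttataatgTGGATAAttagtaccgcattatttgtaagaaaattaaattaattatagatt
STP4 promoter: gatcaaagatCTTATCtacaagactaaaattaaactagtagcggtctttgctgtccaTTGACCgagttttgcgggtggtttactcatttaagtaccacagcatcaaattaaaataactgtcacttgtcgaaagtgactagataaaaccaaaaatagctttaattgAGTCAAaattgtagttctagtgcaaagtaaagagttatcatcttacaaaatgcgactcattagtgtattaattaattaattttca
SUC1 promoter: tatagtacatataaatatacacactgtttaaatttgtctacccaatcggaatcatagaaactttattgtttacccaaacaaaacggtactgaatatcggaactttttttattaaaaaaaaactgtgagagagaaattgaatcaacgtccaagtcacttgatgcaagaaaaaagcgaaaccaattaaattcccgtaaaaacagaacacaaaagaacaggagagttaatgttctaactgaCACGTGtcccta
SUC2 promoter: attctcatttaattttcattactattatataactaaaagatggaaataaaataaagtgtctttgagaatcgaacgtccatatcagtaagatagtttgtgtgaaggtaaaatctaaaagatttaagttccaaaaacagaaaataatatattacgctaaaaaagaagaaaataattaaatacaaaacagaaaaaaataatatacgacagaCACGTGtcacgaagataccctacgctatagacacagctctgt

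The G-box word stood in the windows of SUC1 and SUC2 and in none of the other 7, and it occurs in 6.49% of the 27443 windows of nuclear protein-coding genes. It began 12 bases before the start of SUC1 and 42 bases before that of SUC2. In STP1 the words TATCCA and TTATCC overlapped on the minus strand, between 51 and 45 bases before the start, and no other of the 9 genes held either word, which occur in 13.6% and 12.5% of all windows. STP4 held a W-box word 193 and 85 bases before the start and an I-box word 240 bases before it. A W-box word was also found in front of TPT, and 28.4% of all windows hold one, while 12.3% hold the I-box word. The windows of STP13, SWEET11, SWEET12 and GPT2 held none of these words. Such matches describe the letters only.

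STP1 and STP4, both hexose symporters, showed the largest changes of the 9 genes, and STP13 rose less. STP1 (AT1G11260, chromosome 1, 3777236 to 3780823, plus strand, 4 exons), a high-affinity hexose symporter known from seedlings and guard cells, had 909, 896 and 876 CPM in the amiR1-3-mterf2 libraries, against 208, 177 and 225 CPM in the Col-0 libraries. All amiR1-3-mterf2 libraries lay close together and far above Col-0, where replicate 2 was the lowest. The level rose 4.39-fold, or by 2.14 on the log2 scale (SE 0.114, adjusted p = 2.56e-07), and only 1.87% of all tested genes had a larger estimate. Exons of STP1 overlap AT1G11270 on the other strand by 312 bp, whose reads could be mixed with those of STP1 because the use of strand in counting is not given in the sources used here. This gene, AT1G11270, had 43, 82 and 55 counts in amiR1-3-mterf2 and 44, 50 and 55 in Col-0, beside at least 3239 counts of STP1 in every library. Of 2287 windows of 50 bases in STP1 exons, 12 recurred elsewhere in the genome, and none did in the exons of the other 8 genes.

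STP4 (AT3G19930, chromosome 3, 6934568 to 6937197, plus strand, 4 exons), a monosaccharide symporter known from sink tissues and induced by wounding, had 138, 136 and 139 CPM in the amiR1-3-mterf2 libraries, against 39.2, 35.4 and 42.5 CPM in Col-0. These groups were separated by more than the whole spread within either genotype. The rise was 3.53-fold, or 1.82 on the log2 scale (SE 0.109, adjusted p = 5.20e-07). STP13 (AT5G26340, chromosome 5, 9243398 to 9247540, minus strand, 4 exons), a hexose symporter linked to defence and to cell death, had 25.1, 24.3 and 29.6 CPM in amiR1-3-mterf2 and 18.3, 16.7 and 16.9 CPM in Col-0. It rose as well, but by 1.52-fold, or 0.60 on the log2 scale (SE 0.122, adjusted p = 0.00280), and 15.3% of all tested genes had a larger estimate.

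Within each library, the balance of the hexose symporters differed between the genotypes. The log2 ratio of STP13 to STP1 counts was -5.09 ± 0.18 in amiR1-3-mterf2 and -3.55 ± 0.17 in Col-0 (SD, n = 3), without overlap of the libraries. For STP4 to STP1, a pair added after the values were known, the ratio was -2.70 ± 0.04 in amiR1-3-mterf2 and -2.38 ± 0.05 in Col-0 (SD, n = 3), again without overlap. STP1 thus gained on both of the other genes.

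**Figure D1:**
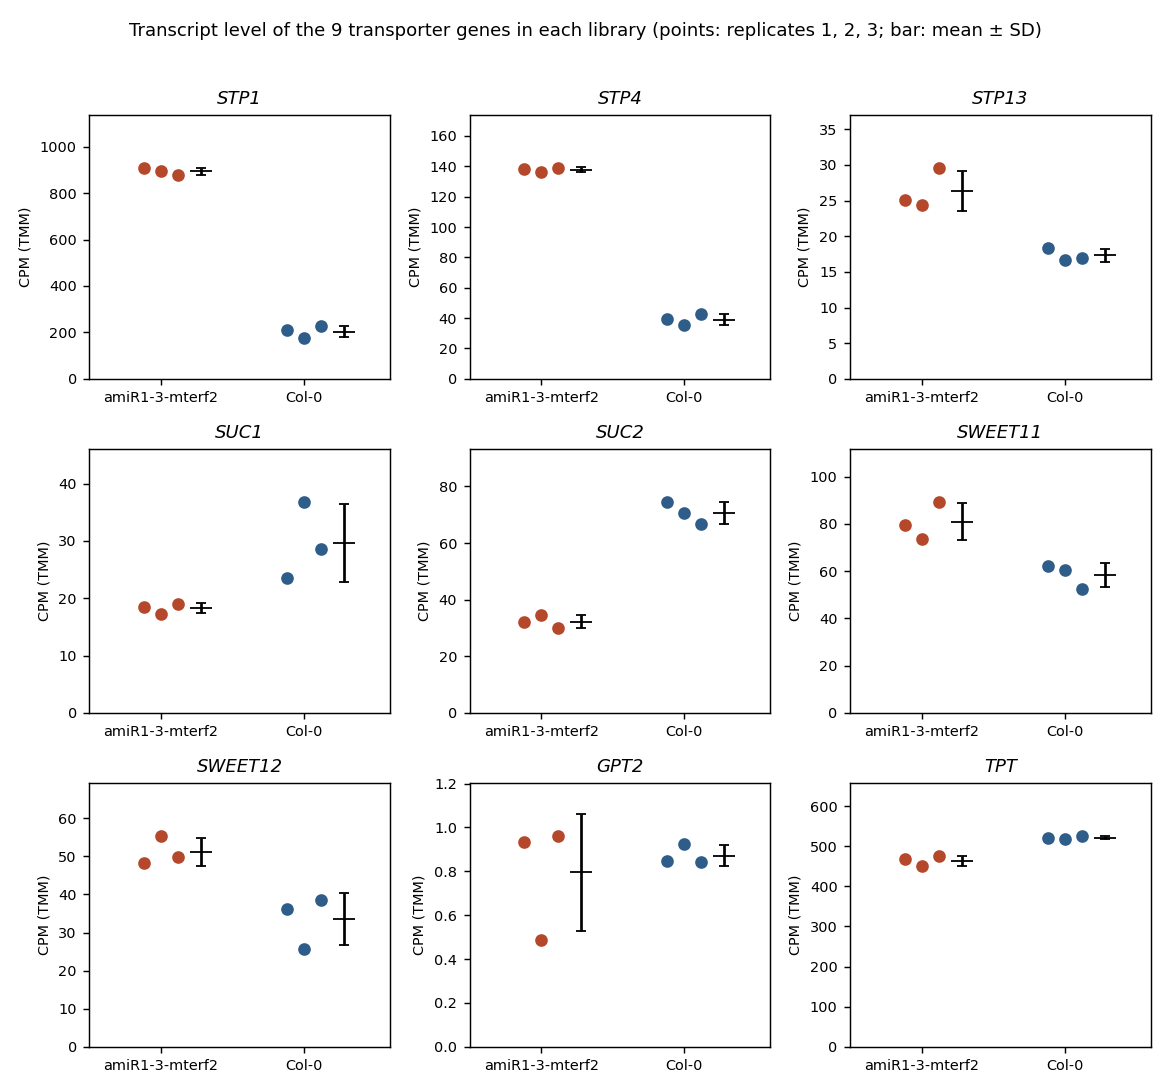
TMM-normalised CPM of the 9 genes in each library, on linear axes that start at 0, with amiR1-3-mterf2 on the left and Col-0 on the right of each panel. Points are replicates 1 to 3 from left to right and bars are mean ± SD, and STP1 lies between 876 and 909 CPM in amiR1-3-mterf2 and between 177 and 225 CPM in Col-0, whereas the groups of GPT2 overlap.

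The sucrose symporters moved the other way. SUC2 (AT1G22710, chromosome 1, 8030587 to 8033156, minus strand, 4 exons), the phloem loader of companion cells, had 32.3, 34.7 and 29.8 CPM in amiR1-3-mterf2, against 74.6, 70.6 and 66.6 CPM in Col-0. The amiR1-3-mterf2 libraries lay close together, and all were well below the lowest Col-0 library. The level fell by 1.13 on the log2 scale (SE 0.110, adjusted p = 1.80e-05), to 0.457 of that in Col-0. SUC1 (AT1G71880, chromosome 1, 27054030 to 27056464, plus strand, 3 exons) had 18.5, 17.2 and 19.0 CPM in amiR1-3-mterf2, against 23.5, 36.8 and 28.6 CPM in Col-0, where the libraries were widely spread and replicate 2 was the highest. It fell by 0.70 on the log2 scale (SE 0.159, adjusted p = 0.00554), and by 0.51 without Col-0 replicate 2 (adjusted p = 7.25e-04). The log2 ratio of SUC1 to SUC2 counts was -0.82 ± 0.18 in amiR1-3-mterf2 and -1.27 ± 0.37 in Col-0 (SD, n = 3), and the libraries of the genotypes overlapped.

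Marker genes of the phloem and of the root were examined beside SUC2. Of 8 phloem markers, 7 were tested, and 3 fell while 0 rose, beside 18.2% of all tested genes that fell and 18.1% that rose. With so few markers, these counts are given as a description only. These were SEOR1, a protein of sieve elements (log2 fold change -0.93, adjusted p = 7.48e-04), AHA3, the proton pump of companion cells (-0.48, adjusted p = 0.00409), and PP2-A1, a phloem lectin (-0.52, adjusted p = 0.0232), whose call was lost in 5 of the 6 fits that left out a library. APL, a regulator of phloem identity, had a log2 fold change of 0.21 (adjusted p = 0.422). The summed level of the 8 genes was 89.0 to 95.9 CPM in amiR1-3-mterf2 and 124 to 137 CPM in Col-0, and none was at 0 in all libraries. Of 8 root markers, 6 were tested, and 3 fell while 0 rose, among them the Casparian strip genes CASP1 (log2 fold change -1.55, adjusted p = 3.27e-05) and CASP2 (-0.64, adjusted p = 0.0200). The call of CASP2 was lost without amiR1-3-mterf2 replicate 2 or 3 or Col-0 replicate 3, at adjusted p values of 0.0921, 0.0718 and 0.0896. The third root marker that fell was COBL9, which had 0, 0 and 2 counts in amiR1-3-mterf2, against 10, 176 and 12 in Col-0. The summed level of the root markers was 16.4 to 17.9 CPM in amiR1-3-mterf2 and 29.5 to 52.9 CPM in Col-0. The highest of these sums was that of Col-0 replicate 2, the library that stood apart. There COBL9 had 9.60 CPM, against 0.470 and 0.561 CPM in Col-0 replicates 1 and 3. The paper's text does not say which parts of the seedlings were taken. In RNA of seedlings, fewer cells of a type and less RNA per cell cannot be told apart. The part of these markers in the levels of the transporters was not tested.

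The SWEET facilitators rose together. SWEET11 (AT3G48740, chromosome 3, 18052466 to 18054832, minus strand, 6 exons) had 79.6, 73.8 and 89.3 CPM in amiR1-3-mterf2, against 62.1, 60.4 and 52.5 CPM in Col-0. SWEET12 (AT5G23660, chromosome 5, 7971647 to 7973995, minus strand, 6 exons) had 48.3, 55.4 and 49.8 CPM in amiR1-3-mterf2, against 36.3, 25.7 and 38.6 CPM in Col-0. For both genes every amiR1-3-mterf2 library was above every Col-0 library, and Col-0 replicate 2 was low for SWEET12. The rise was 1.39-fold for SWEET11 (log2 fold change 0.47, SE 0.117, adjusted p = 0.00875). It was 1.53-fold for SWEET12 (log2 fold change 0.61, SE 0.151, adjusted p = 0.00865). With total counts in place of TMM neither passed the threshold (log2 fold change 0.32, adjusted p = 0.0801 for SWEET11, and 0.44, adjusted p = 0.0750 for SWEET12), and SWEET11 also missed it without amiR1-3-mterf2 replicate 3 (0.40, adjusted p = 0.0576). The log2 ratio of SWEET11 to SWEET12 counts was 0.66 ± 0.22 in amiR1-3-mterf2 and 0.82 ± 0.40 in Col-0 (SD, n = 3), with overlapping libraries.

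Neither chloroplast translocator passed the threshold. TPT (AT5G46110, chromosome 5, 18697235 to 18700900, plus strand, 12 exons) had 467, 451 and 475 CPM in amiR1-3-mterf2, against 519, 518 and 526 CPM in Col-0. All amiR1-3-mterf2 libraries were lower than all Col-0 libraries, by a small step. The estimate was -0.17 on the log2 scale (95% interval -0.37 to 0.03, adjusted p = 0.181). It passed the threshold without Col-0 replicate 2 (-0.17, adjusted p = 0.00286) and with total counts in place of TMM (-0.32, adjusted p = 0.0358), which also moved the median of all genes to -0.17. GPT2 (AT1G61800, chromosome 1, 22824414 to 22826902, plus strand, 4 exons), a gene known to be induced by sugar and by a shift to high light, had only 16, 10 and 18 counts in amiR1-3-mterf2 and 18, 17 and 18 counts in Col-0. The levels overlapped at 0.935, 0.488 and 0.962 CPM in amiR1-3-mterf2 and 0.845, 0.927 and 0.842 CPM in Col-0. Its log2 fold change was -0.14 with a 95% interval of -1.13 to 0.86 (adjusted p = 0.837), so that a rise or fall as large as those of SUC1, SWEET11 and SWEET12 could not be told from no change at this depth.

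**Figure D2:**
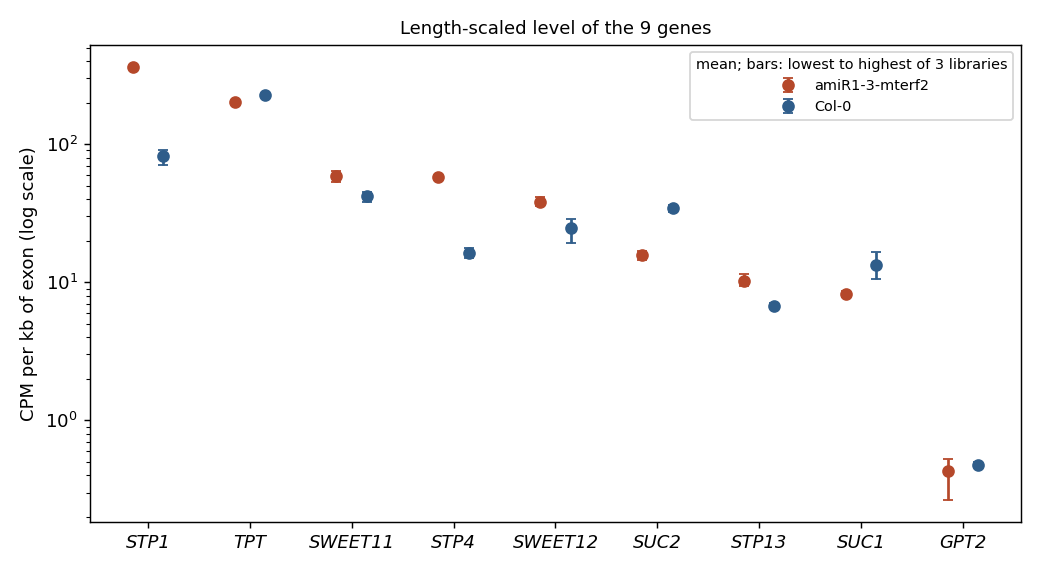
Level of each gene in CPM per kb of exon on a log axis, with amiR1-3-mterf2 to the left of Col-0 for each gene and bars from the lowest to the highest of 3 libraries. STP1 stands above TPT in amiR1-3-mterf2 (360 and 202 CPM per kb) and below it in Col-0 (81.9 and 226 CPM per kb), and GPT2 is the lowest gene in both.

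Levels of different genes were set beside each other as CPM per kb of exon. In amiR1-3-mterf2 the order was STP1 (360 ± 6.55 CPM per kb), TPT (202 ± 5.37), SWEET11 (58.3 ± 5.66), STP4 (57.9 ± 0.662), SWEET12 (38.01 ± 2.76), SUC2 (15.7 ± 1.19), STP13 (10.2 ± 1.11), SUC1 (8.25 ± 0.413) and GPT2 (0.431 ± 0.144) (SD, n = 3). Neighbours in this order were separated in all libraries, with the exception of SWEET11 and STP4. The Col-0 order was TPT (226 ± 1.77 CPM per kb), STP1 (81.9 ± 9.97), SWEET11 (42.1 ± 3.68), SUC2 (34.5 ± 1.95), SWEET12 (24.9 ± 5.10), STP4 (16.4 ± 1.48), SUC1 (13.4 ± 3.04), STP13 (6.71 ± 0.340) and GPT2 (0.473 ± 0.0261) (SD, n = 3). Here the neighbours STP4 and SUC1 overlapped. STP1 thus took the place of TPT at the head of the order, STP4 moved above SWEET12 and SUC2, SUC2 moved below SWEET12, and STP13 and SUC1 exchanged places.

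The families of the 9 genes were then examined in full, by 5 lists of transporters with 58 genes, of which 49 were not among the 9. Among these 49, 26 could be tested, and 6 rose while 10 fell. The calls thus covered 61.5% of these 26 tested genes, beside 36.4% of all tested genes. The lists were drawn up with earlier results of these libraries known.

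Among the 14 STP genes, 7 were tested, and 4 rose while 2 fell, beside 18.1% of all tested genes that rose and 18.2% that fell. STP14, a galactose carrier, rose about as much as STP1, with 118.8 ± 1.77 CPM in amiR1-3-mterf2 and 26.5 ± 3.10 CPM in Col-0 (SD, n = 3, log2 fold change 2.16, adjusted p = 2.82e-07). STP7, known to carry pentoses, had 7.58 ± 0.751 CPM in amiR1-3-mterf2 and 15.03 ± 0.933 CPM in Col-0 (SD, n = 3), and fell by 0.99 on the log2 scale (adjusted p = 2.26e-04). AT5G61520 of the same list had a log2 fold change of -1.04 (adjusted p = 0.00330). The summed level of the 14 genes was 1174 to 1201 CPM in amiR1-3-mterf2 and 274 to 335 CPM in Col-0, and most of it came from STP1. Among the 9 SUC genes, 4 were tested, and 1 rose while 2 fell, beside the same shares of all tested genes. Besides SUC1 and SUC2, which fell, SUC3 had 8.92 ± 0.582 CPM in amiR1-3-mterf2 and 5.75 ± 1.09 CPM in Col-0 (SD, n = 3). SUC3, a sucrose carrier of low affinity, rose by 0.64 on the log2 scale (adjusted p = 0.0151), a call that was lost without amiR1-3-mterf2 replicate 1 (0.59, adjusted p = 0.0632), Col-0 replicate 1 (0.54, adjusted p = 0.0573) or Col-0 replicate 3 (0.59, adjusted p = 0.0526).

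The 17 SWEET genes gave 7 tested genes, of which 3 rose and 3 fell, so that the family moved in both directions. Over all tested genes 18.1% rose and 18.2% fell. With total counts in place of TMM 1 SWEET gene rose, beside 2129 of all 17902 tested genes. Without the filter on low counts 6 of 14 tested SWEET genes fell, beside 3388 of all 25351. SWEET2, a facilitator of the vacuolar membrane, rose by 1.47 on the log2 scale (adjusted p = 4.69e-05). SWEET15, which is known as a gene of senescing leaves and of seeds, had 12, 4 and 2 counts in amiR1-3-mterf2, against 91, 66 and 121 counts in Col-0. All amiR1-3-mterf2 libraries were thus far below Col-0, and the difference was -3.78 on the log2 scale (SE 0.495, adjusted p = 1.57e-04). With so few counts in amiR1-3-mterf2 the size of this fall is uncertain, and it was -4.82 without amiR1-3-mterf2 replicate 1 and -3.36 without replicate 3. The glucose facilitator SWEET1 (log2 fold change -1.61, adjusted p = 2.61e-04) and the vacuolar fructose facilitator SWEET17 (-1.18, adjusted p = 8.84e-04) fell too.

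**Figure D3:**
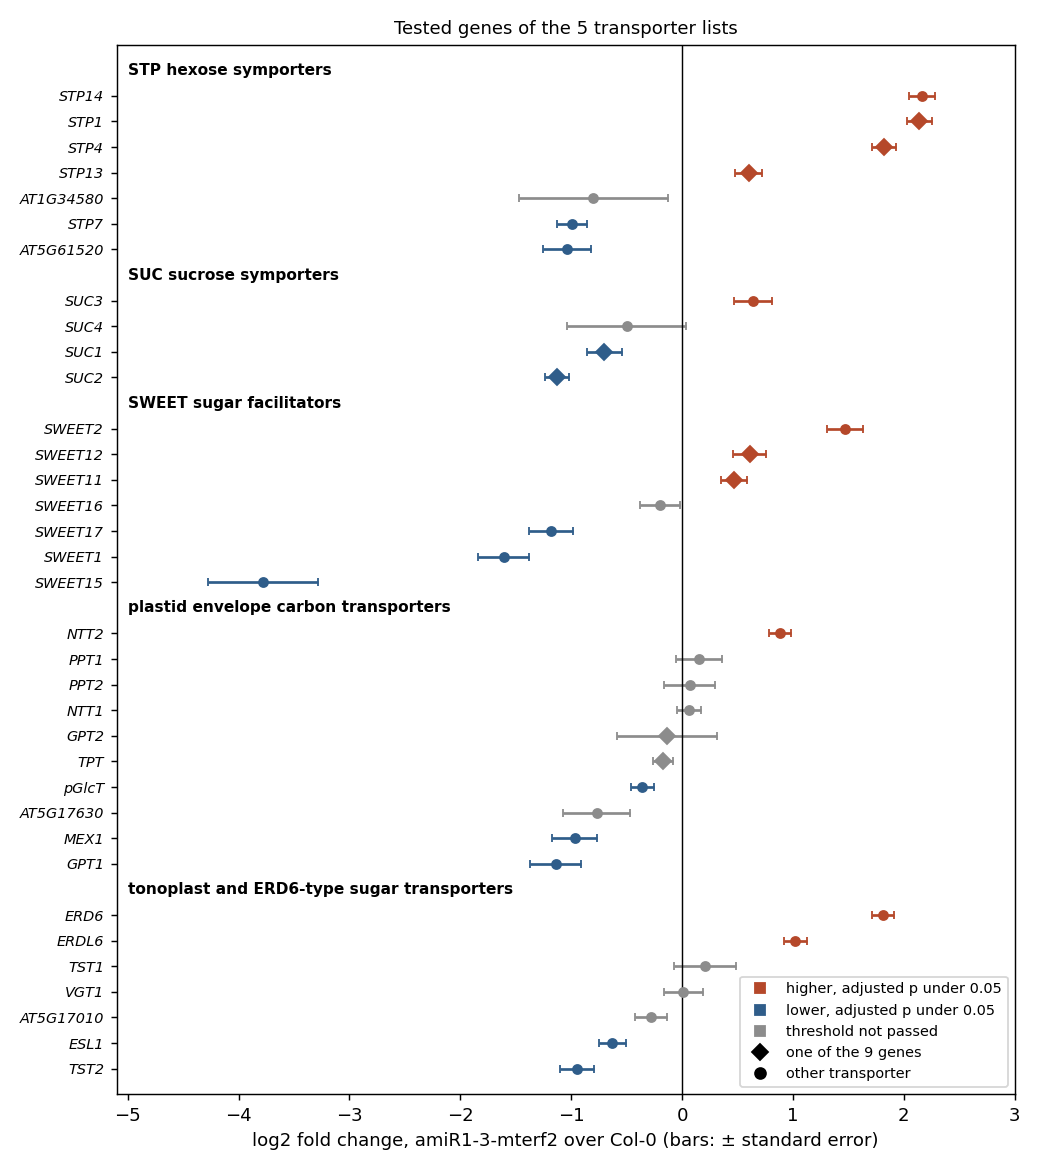
Log2 fold change of amiR1-3-mterf2 over Col-0 with its standard error for the 35 tested genes of the 5 transporter lists, with diamonds for the 9 genes and circles for the others, red for genes that rose, blue for genes that fell and grey for genes that did not pass the threshold. STP14, STP1, STP4 and ERD6 have the largest rises, between 1.81 and 2.16, and SWEET15 has the largest fall, at -3.78.

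Of the 10 carbon and energy transporters of the plastid envelope, all were tested, and 1 rose while 3 fell. Over all tested genes 18.1% rose and 18.2% fell. Without Col-0 replicate 2, 2 of the 10 rose and 4 fell, beside 4046 and 3803 of all 18303 tested genes. With total counts in place of TMM 5 of the 10 fell, beside 4148 of all 17902. The ATP/ADP carrier NTT2 had 142.7 ± 4.07 CPM in amiR1-3-mterf2 and 77.4 ± 3.75 CPM in Col-0 (SD, n = 3, log2 fold change 0.88, adjusted p = 5.00e-05). GPT1, the close relative of GPT2, had 5.49, 7.03 and 6.04 CPM in amiR1-3-mterf2, against 10.7, 19.4 and 11.2 CPM in Col-0, and fell by 1.14 on the log2 scale (adjusted p = 0.00272). The maltose exporter MEX1 had a log2 fold change of -0.97 (adjusted p = 0.00347) and the glucose exporter pGlcT of -0.36 (adjusted p = 0.0181), and the call of pGlcT was lost in 5 of the 6 fits that left out a library. Of the 8 transporters of the tonoplast and of the ERD6 type, 7 were tested, with 2 that rose and 2 that fell, beside the same 18.1% and 18.2%. ERD6 had 263 ± 9.51 CPM in amiR1-3-mterf2 and 75.3 ± 3.07 CPM in Col-0 (SD, n = 3, log2 fold change 1.81, adjusted p = 3.09e-07). ERDL6, which releases glucose from the vacuole, rose by 1.02 on the log2 scale (adjusted p = 2.40e-05). The vacuolar sugar importer TST2 (log2 fold change -0.95, adjusted p = 6.22e-04) and the facilitator ESL1 (-0.63, adjusted p = 0.00230) fell.

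A list of enzymes that make and split sucrose, which also holds the hexokinases HXK1 and HXK2, was counted for the same libraries. Of its 20 genes 15 were tested, of which 2 rose and 8 fell, beside 18.1% and 18.2% of all tested genes. Both hexokinases were among those that fell. The call of HXK2 (log2 fold change -0.60, adjusted p = 0.0325) was kept in 8 of 13 alternatives. Without amiR1-3-mterf2 replicate 1 only 4 genes of the list fell, and without amiR1-3-mterf2 replicate 3 only 5. The list's median log2 fold change was -0.59, beside -0.02 over all tested genes. Both genes that rose were invertases, while the invertase AT1G62660 did not pass the threshold (log2 fold change -0.59, adjusted p = 0.103). The cell wall invertase CWINV1, which releases hexoses outside the cell, had 82.8, 77.2 and 77.8 CPM in amiR1-3-mterf2, against 4.88, 22.0 and 8 CPM in Col-0. The Col-0 libraries were uneven, with replicate 2 the highest, yet all lay below amiR1-3-mterf2. The rise was 2.78 on the log2 scale (SE 0.403, adjusted p = 3.15e-04), and 3.62 without Col-0 replicate 2 (adjusted p = 2.92e-17). The vacuolar invertase BFRUCT4 rose by 0.92 on the log2 scale (adjusted p = 1.20e-04). Among the genes that fell were the sucrose phosphate synthase SPS4F (log2 fold change -1.37, adjusted p = 5.48e-05), the hexokinase and glucose sensor HXK1 (-0.91, adjusted p = 8.84e-04) and the sucrose synthase SUS3 (-1.13, adjusted p = 0.00154).

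The likeness of profiles was measured among the 35 tested transporters, as the root mean square difference of 2 genes' log2 levels over the 6 libraries after each gene's mean was taken off. The profile nearest to STP1 was that of STP14 (0.0727), and nearest to STP4 was ERD6 (0.0958). STP13 and SWEET11 were each other's nearest (0.0905), and STP13 was also nearest to SWEET12 (0.206). SUC2 had STP7 (0.115) and SUC1 had ESL1 (0.153) as nearest profile. For TPT it was AT5G17010 (0.0772). For GPT2 it was VGT1 (0.165), with TPT almost as near (0.169), and with 10 to 18 counts per library this choice is uncertain.

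**Figure D4:**
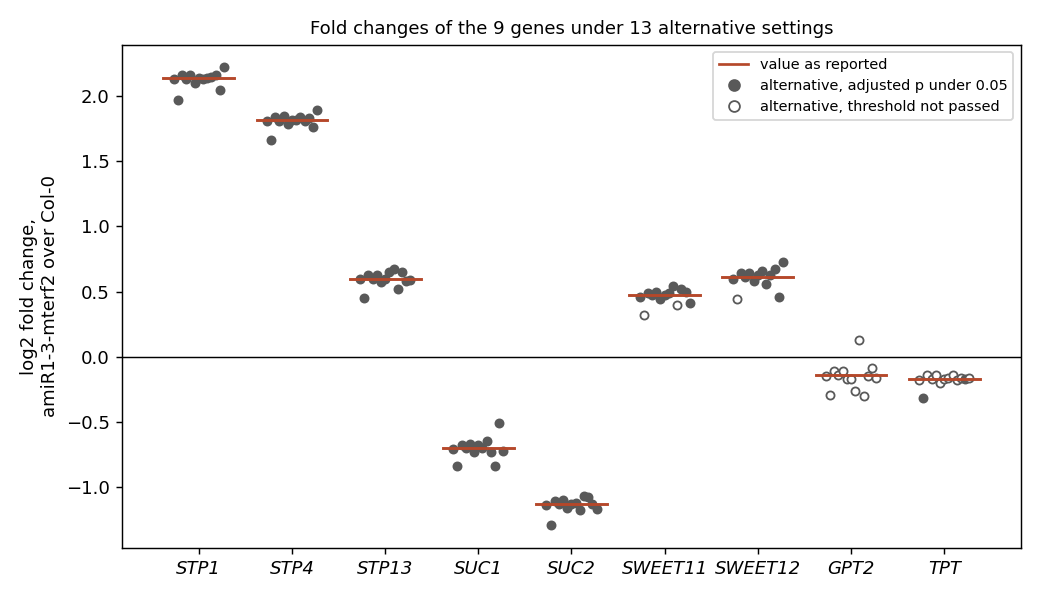
Log2 fold change of amiR1-3-mterf2 over Col-0 for the 9 genes as reported (red line) and under 13 alternatives of scaling, test, filter, block and left-out library (points), filled where the adjusted p was under 0.05 and open where it was not. STP1, STP4, STP13, SUC1 and SUC2 keep filled points on 1 side of 0 throughout, SWEET11 has 2 open points and SWEET12 has 1, and GPT2 crosses 0.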

How the data were processed

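Gene counts of 3 amiR1-3-mterf2 and 3 Col-0 libraries were used, grouped by the sample titles. The deposited values are the authors' raw read counts per gene, without normalization. Per the file headers the reads had been aligned with HISAT2, whereas the submitters' processing notes list Trimmomatic, FastQC, TopHat2 2.1.1, featureCounts and TAIR10. Whether strand was used, and how multiply matching reads were treated, is not given in the sources used here. Genes were kept by edgeR's filterByExpr (minimum count 10, minimum total 15), scaled by TMM and tested in edgeR (quasi-likelihood F test), and p values were adjusted by the Benjamini-Hochberg method over the kept genes, at a threshold of 0.05 (R 4.3.3, edgeR 4.0.16, DESeq2 1.42.0, Python 3.11.15). The standard error (SE) was obtained from the fold change and its F statistic, and 95% intervals use the t distribution with the fit's degrees of freedom. Levels are CPM from TMM-scaled library sizes, with the SD over 3 libraries. Profile distances used log2(CPM + 0.5), and count ratios a pseudocount of 0.5. The tests were tested on simulated data.

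The alternatives were DESeq2's size factors, total counts without TMM, scaling by nuclear genes, the DESeq2 Wald test, no filter, a minimum of 10 counts per library, a block for the replicate number, and fits that each lacked 1 library. Members and lists were chosen with earlier results of these data known. Named from each list were the 3 further genes with the smallest adjusted p in each direction. APL, EXPA7, AT1G11270, HXK2 and AT1G62660 were added after their values were seen. Exon lengths, coordinates and promoters are from RefSeq TAIR10.1, and 81 of the 94 listed genes carry there the symbol used here as name or synonym, while the others were matched by their identifier. The floor of 3 counts covers counting error only.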

Additional observations from a re-analysis of the deposited data

How the results depend on the processing

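The counts of 5 genes that rose and 2 that fell were obtained with DESeq2's size factors, with scaling by nuclear genes, with the DESeq2 Wald test, without a filter and with at least 10 counts in every library. With total counts without TMM, 3 of the 9 genes rose and 3 fell, and over all genes 2129 were higher and 4148 lower, against 3248 and 3261 with TMM. Leaving out each library in turn gave 4 to 5 genes that rose and 2 to 3 that fell, and 2479 to 4046 higher and 2488 to 3803 lower genes over the whole table. GPT2 changed sign without amiR1-3-mterf2 replicate 2, to 0.13 (adjusted p = 0.863, edgeR), and ranged from -0.30 to 0.13 over the fits that left out a library. The cause of these changes was not tested. Deviations of same-numbered libraries from the mean of their genotype were hardly correlated (0.0345, 0.0211 and -0.0119 for replicates 1 to 3). For 4 of the 6 libraries, the best correlated library of the other genotype carried the same number. With the replicate number as a block, 5 genes rose and 2 fell, and 3146 genes were higher and 3126 lower, so that the block changed no call of the 9 genes. GPT2, with 10 to 18 counts, had the fewest counts of the 9 genes and the largest SE of the log2 fold change (0.451).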
